A study of Mus musculus with 27 samples.

Results

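The glutathione, thioredoxin and NRF2 genes described here are 10 named genes: Nfe2l2, Keap1, Gclc, Gclm, Gss, Gsr, Txnrd1, Txn1, Prdx1 and Srxn1. They are taken by symbol, and all 10 were found among the 26802 genes of a read count table for mouse T cells. The table covers 27 RNA sequencing libraries of CD4+ and CD8+ T cells in 9 groups of 3, made to compare cells without Raptor or without Rictor with wild-type cells, at rest and after stimulation. T cells were purified by negative magnetic selection from pooled lymph nodes and spleens of B6 mice, cultured for 48 h, and sorted as live cells before total RNA was taken. Stimulated cultures received 10 µg/ml of antibodies against CD3 and CD28 fixed to the plate, and resting cultures received 5 ng/ml of IL-7, a survival cytokine, so the cultures differ in cytokine as well as in antibody.

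Raptor KO cells came from mice labelled B6-Tg(Cd4-cre)1Cwi-Rptortm1.1Dmsa, in which Cre recombinase under the CD4 promoter acts on floxed Rptor. Rictor KO cells came from mice labelled B6-Tg(Cd4-cre)1Cwi-Rictortm1.1Klg, and WT cells from B6-wt mice, for which the labels name no Cre transgene. Raptor defines mTORC1 and Rictor defines mTORC2, the complexes in which the growth kinase mTOR acts. The Raptor KO and WT groups exist for both subsets and both cultures, whereas Rictor KO cells were measured only as stimulated CD8+ cells. No ages are labelled, and it is not stated if libraries of 1 group stem from separate animals or cultures, so the p-values reflect the spread among these samples alone, which may be technical.

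Glutathione and thioredoxin are the main carriers of reducing power against peroxides and oxidised protein thiols, and both draw their electrons from NADPH. NRF2, the product of Nfe2l2, is a transcription factor that pairs with small MAF proteins on antioxidant response elements, and it is controlled largely through the stability of its protein, which KEAP1 marks for destruction. T cells that are activated through their receptor are known to need both systems for growth and division.

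Libraries held 8640699 to 16817347 counts, of which the ribosomal RNA precursor Rn45s took 81.1% to 88.4%, leaving 1522199 to 2515583 counts for all other genes. Levels below are CPM, counts over library totals adjusted with TMM factors, so they are not shares of the remaining counts. The adjustment differed widely between libraries. Nfe2l2 had 66 counts and 58.8 CPM in resting Raptor KO CD8+ replicate 3, which held 2198387 remaining counts. It had 69 counts and 19.5 CPM in stimulated WT CD8+ replicate 3, which held 2263964. Protein-coding genes held 18.7% to 63.6% of the remaining counts, with 18.7% and 62.5% in these libraries, in that order. Summed CPM of 7 T cell markers was 412 to 1183 in every library, and Cd4 and Cd8a separated the subsets in all groups (group means of 175 to 301 CPM of Cd4 in CD4+ groups against 0.771 to 2.76 CPM in CD8+ groups). As counted over the whole gene, Rptor averaged 22.1 ± 4.41 CPM in stimulated Raptor KO CD4+ cells and 26.3 ± 3.63 CPM in stimulated WT CD4+ cells (SD, n = 3 each), and 19.8 ± 2.68 against 23.5 ± 5.27 CPM in stimulated CD8+ cells. Rictor averaged 39.1 ± 1.61 CPM in stimulated Rictor KO and 45.0 ± 7.19 CPM in stimulated WT CD8+ cells. Reads outside the floxed parts still count, so this is a weak check of the deletions.

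Promoter sequences (250 bases before to 50 after each start; RefSeq, GRCm38.p6) were held for 8 of the 10 genes, and Gclc and Gsr had none. Both strands were searched for the core of the antioxidant response element, TGACNNNGC, which is the site bound by NRF2 with its MAF partners. It was found in 5 of the 8 genes, Nfe2l2, Gclm, Txnrd1, Prdx1 and Srxn1, against 14% of all 27025 genes with a promoter in the same table. The genes were chosen by name for this pathway, so these shares describe the list and were not tested. The sequences are shown because Prdx1, Txnrd1 and Nfe2l2 hold the core and changed after stimulation in both subsets and both genotypes. Txn1, which changed most among the 9 genes with enough counts to test, held no match and is shown beside them. Gclm also holds the core but was called after stimulation only in WT CD8+ cells, so it is not shown. Capitals mark the core, which reads on the plus sense of the gene in Nfe2l2 and as its reverse complement GCNNNGTCA in Prdx1 and Txnrd1.
Prdx1, chr4:116685349-116685648, plus strand: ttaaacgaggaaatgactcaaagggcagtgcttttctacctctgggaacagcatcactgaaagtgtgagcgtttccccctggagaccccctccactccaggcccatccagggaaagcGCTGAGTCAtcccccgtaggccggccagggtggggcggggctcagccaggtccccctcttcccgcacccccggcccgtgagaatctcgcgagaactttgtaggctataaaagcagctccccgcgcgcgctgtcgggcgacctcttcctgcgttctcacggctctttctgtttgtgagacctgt
Txnrd1, second of 3 starts, chr10:82858956-82859255, plus strand: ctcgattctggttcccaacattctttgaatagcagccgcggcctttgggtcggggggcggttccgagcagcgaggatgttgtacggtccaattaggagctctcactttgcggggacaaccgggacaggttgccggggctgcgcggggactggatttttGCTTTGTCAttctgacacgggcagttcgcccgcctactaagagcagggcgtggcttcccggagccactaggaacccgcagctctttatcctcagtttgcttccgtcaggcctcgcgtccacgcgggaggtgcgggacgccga
Txn1, chr4:57956362-57956661, minus strand: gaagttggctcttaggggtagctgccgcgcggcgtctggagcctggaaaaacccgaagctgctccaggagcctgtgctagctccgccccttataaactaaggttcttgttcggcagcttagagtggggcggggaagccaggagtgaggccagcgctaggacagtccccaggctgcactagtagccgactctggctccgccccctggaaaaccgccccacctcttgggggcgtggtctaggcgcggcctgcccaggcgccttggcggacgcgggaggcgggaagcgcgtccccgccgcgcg
Nfe2l2, chr2:75704614-75704913, minus strand: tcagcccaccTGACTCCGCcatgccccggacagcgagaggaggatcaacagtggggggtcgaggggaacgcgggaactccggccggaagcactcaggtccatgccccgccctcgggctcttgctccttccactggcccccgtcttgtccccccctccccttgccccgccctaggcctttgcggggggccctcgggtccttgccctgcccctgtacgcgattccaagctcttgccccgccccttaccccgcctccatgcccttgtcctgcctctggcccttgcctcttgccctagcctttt
The core spans bases -133 to -125 from the start in Prdx1, -92 to -84 in Txnrd1 and -240 to -232 in Nfe2l2. In Gclm it spans -134 to -126, and in Srxn1 it lies after the start, at 28 to 36. The C/EBP-ATF response element TTGCATCA, bound by ATF4, was in none of the 10 promoters of these 8 genes and in 0.895% of all 32851 promoters. A match describes letters in this window and says nothing of binding, and a missing match says only that these letters are not in the window.

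Per kilobase of exon, thioredoxin was the most abundant of the 10 transcripts in all 5 stimulated groups, and the spread between genes was wide. Txn1 (chr4:57943373-57956411, GRCm38) averaged 182 ± 26.1 CPM per kb in stimulated Rictor KO CD8+ cells, 159.6 ± 2.35 in stimulated Raptor KO CD8+ cells and 167 ± 25.6 in stimulated WT CD8+ cells (SD, n = 3 each). Prdx1 (chr4:116685544-116700822), a peroxidase that is reduced by thioredoxin, followed with 43.4 ± 1.19, 33.0 ± 5.24 and 34.7 ± 5.92 CPM per kb in the same 3 groups. Txnrd1 (chr10:82833951-82897712), the NADPH-dependent reductase of thioredoxin, reached 15.0 ± 1.44, 13.9 ± 0.635 and 16.0 ± 2.17 CPM per kb there. Gclm and Gss, which take part in glutathione synthesis, were scarcer: Gclm (chr3:122245557-122270732) lay between 1.13 ± 0.243 and 2.43 ± 0.501 CPM per kb over the 9 group means, and Gss (chr2:155563181-155592810) between 0.551 ± 0.0696 and 1.20 ± 0.225. Gclc, the catalytic gene of that synthesis, was not scarce at rest, with 11.2 ± 2.26 CPM per kb in resting Raptor KO and 9.39 ± 0.849 in resting WT CD8+ cells. At rest Txn1 still led in Raptor KO cells, with 25.5 ± 6.03 CPM per kb in CD4+ cells, where Prdx1 followed with 15.9 ± 1.47, and 23.7 ± 2.34 in CD8+ cells, where Nfe2l2 followed with 15.8 ± 1.35. In resting WT CD4+ cells Txn1 had 15.2 ± 1.30 CPM per kb, Prdx1 12.6 ± 1.38, Nfe2l2 11.7 ± 1.99 and Gclc 10.4 ± 2.25, and in resting WT CD8+ cells Prdx1 had 15.2 ± 3.99 and Txn1 13.2 ± 4.83. In resting WT CD4+ cells Txn1 lay above Prdx1 by more than either SD. The other neighbours in both WT orders differed by no more than about their spread.

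**Figure D1:**
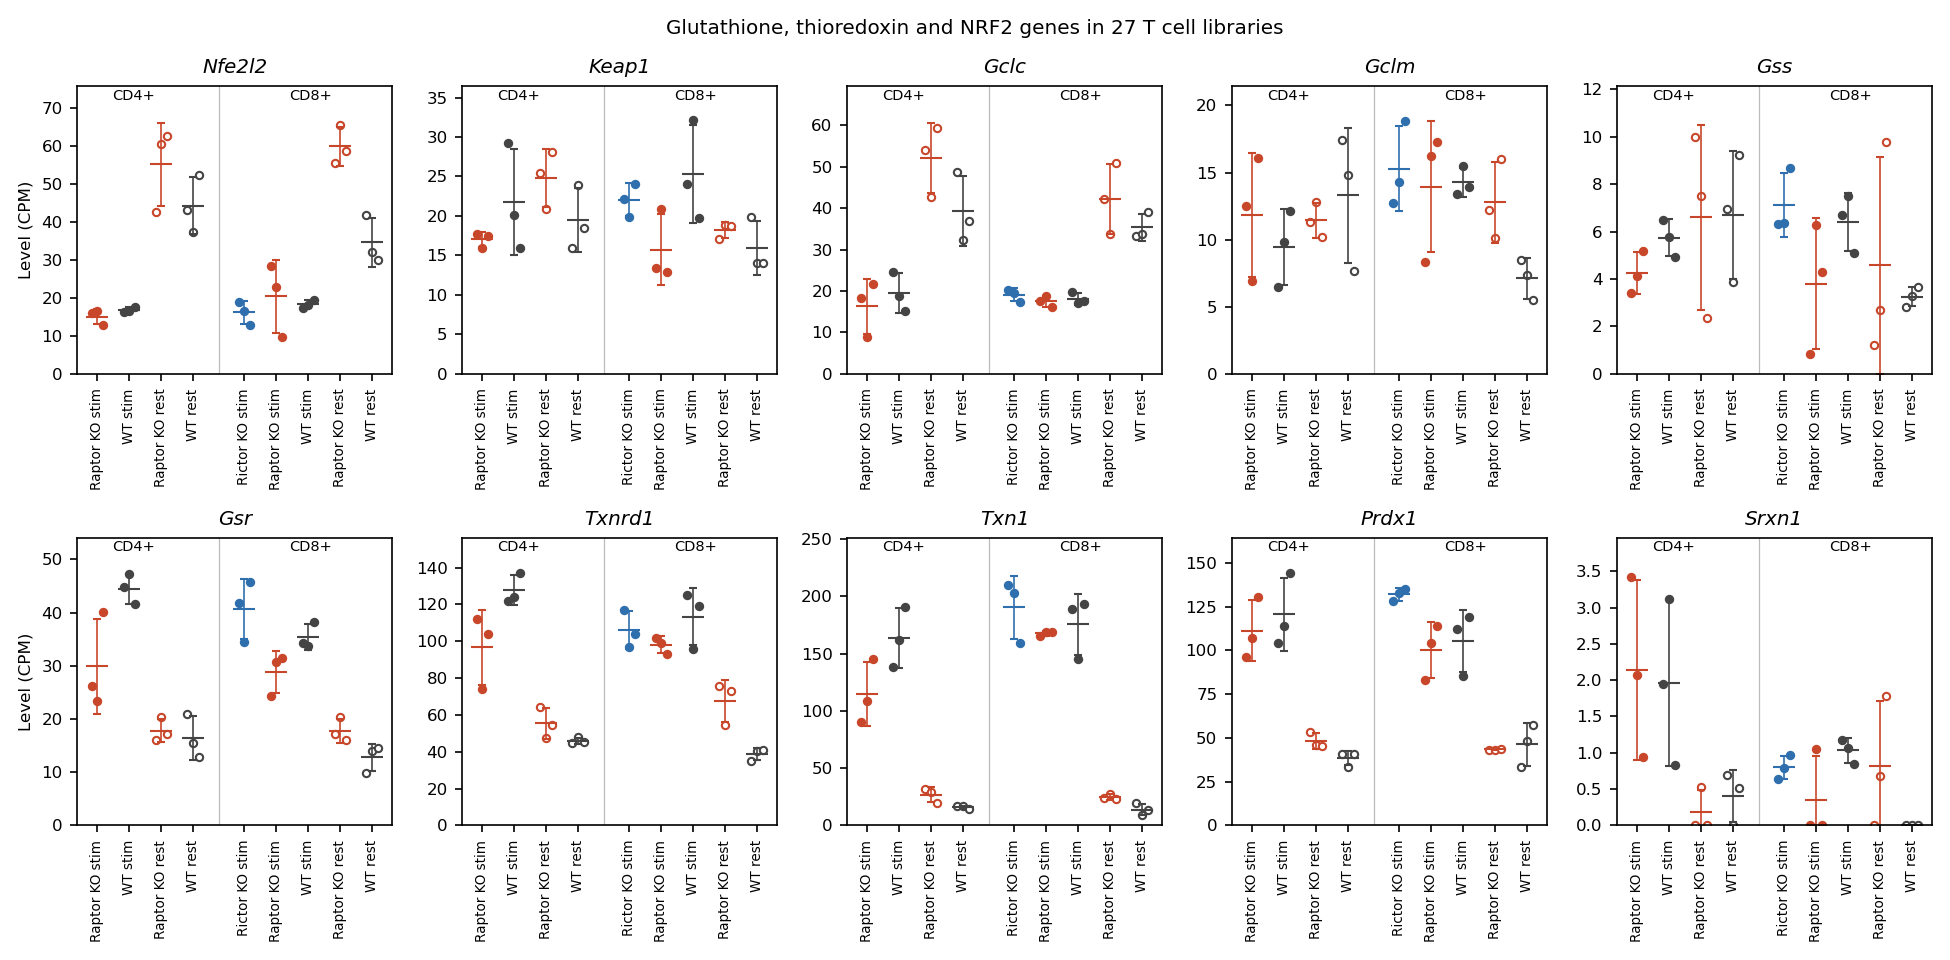
Level of each of the 10 genes (CPM, y axis from 0) in every library, by group; points are libraries, dashes are means and bars are SD (n = 3). Filled points are stimulated and open points resting cultures; the SD bar of Gss in resting Raptor KO CD8+ cells runs below 0 and is clipped. Txn1 sits above 90 CPM in every stimulated library and below 32 CPM in every resting one, while Nfe2l2 and Gclc run the other way.

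Some counts are uncertain, because neither the counting program nor its use of strand is stated. Exons of Gss overlap those of Acss2, Gssos1 and Gssos2 on the other strand, exons of Keap1 overlap the antisense gene Gm16754, and those of Gclm overlap Gm6061 and Gm17494. Of the 50-base stretches of Prdx1 transcripts, 8.81% also occur in other genes, mostly pseudogenes, and 2.5% of those of Txn1 occur in Txn-ps1. For Gclm 4.58% also occur elsewhere, in 146 genes that include Gm17494 and the protein-coding Ppia. Nfe2l2, Gclc, Gsr, Txnrd1 and Srxn1 had neither an exon overlap nor a shared stretch.

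Stimulation divided the genes. Txn1, Prdx1, Txnrd1 and Gsr, which use and regenerate thioredoxin and glutathione, rose in both subsets and both genotypes, whereas Nfe2l2 and the catalytic subunit gene Gclc fell in all 4 comparisons. Of the 9 genes with enough counts to test, 4 rose and 2 fell in Raptor KO CD4+ cells, where 27.9% of 10493 genes tested rose and 24.1% fell (52.0% together). In WT CD4+ cells 4 rose and 2 fell, where 32.4% of all genes rose and 32.5% fell (64.9%). In Raptor KO CD8+ cells 4 rose and 2 fell, beside 29.5% and 26.0% of all genes (55.6%), and in WT CD8+ cells 6 rose and 2 fell, beside 32.0% and 30.8% (62.8%). The share of the 9 genes that changed was thus near the background of the CD4+ and Raptor KO CD8+ comparisons and above it in WT CD8+ cells, with no test of that difference. The median log2 fold change of the 9 genes was 0.07 in Raptor KO CD4+, 0.09 in WT CD4+, 0.21 in Raptor KO CD8+ and 1.00 in WT CD8+ cells, beside medians of 0.04, -0.03, 0.03 and 0.00 over all genes tested. The calls are by edgeR's quasi-likelihood test with Benjamini-Hochberg adjustment over all genes at 0.05, as are all adjusted p-values below. In bulk samples like these, fewer cells of a type and less RNA per cell cannot be told apart.

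Other measures moved with stimulation. The summed level of 7 T cell markers was 412 to 443 CPM in stimulated against 812 to 1141 CPM in resting Raptor KO CD8+ cells and 456 to 487 against 1063 to 1183 CPM in WT CD8+ cells. In CD4+ cells it was 486 to 556 against 718 to 916 CPM in Raptor KO and 437 to 443 against 692 to 805 CPM in WT cells. The sum of 4 NK cell markers was 12.2 to 24.6 CPM in stimulated against 42.7 to 49.3 CPM in resting WT CD8+ cells, most of it Klrk1, and Ncr1 had 0 against 1 counts. The sum of 8 myeloid markers was 14.3 to 19.3 CPM in stimulated against 34.8 to 53.9 CPM in resting WT CD4+ cells, most of it Ctss, and Lyz2 had 0 against 5 counts. Protein-coding genes held 49.9% to 62.5% of the non-Rn45s counts in stimulated against 24.2% to 33% in resting WT CD8+ libraries. Their part in the stimulation results was not tested.

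Thioredoxin itself changed most among the 9 genes tested. In WT CD4+ cells Txn1 had 138, 162 and 190.4 CPM in stimulated libraries, against 16.7, 16.8 and 14.4 CPM in resting libraries. The lowest stimulated library was thus far above the highest resting one. The log2 fold change was 3.36 ± 0.20 (SE; adjusted p = 9.01e-18), a 10.3-fold rise. Raptor KO CD4+ cells had 90.6, 109 and 145 CPM of Txn1 when stimulated, against 31.4, 29.4 and 19.5 CPM at rest. These groups also did not overlap, and the rise was smaller, 2.09 ± 0.19 (adjusted p = 3.69e-12) or 4.25-fold. In CD8+ cells Txn1 rose by 2.75 ± 0.19 in Raptor KO cells (165, 169 and 169 CPM stimulated, against 23.8, 27.7 and 23.2 CPM at rest; adjusted p = 2.46e-15). WT CD8+ cells had 189, 145 and 193 CPM when stimulated, against 19.2, 9.03 and 13.4 CPM at rest, a rise of 3.65 ± 0.21 (adjusted p = 2.74e-18) or 12.5-fold.

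Prdx1 and both reductases rose by less. Prdx1 had 96.3, 107 and 130.4 CPM in stimulated Raptor KO CD4+ cells, against 53.4, 46.0 and 45.3 CPM at rest, and 104, 114 and 144 CPM in stimulated WT CD4+ cells, against 41.0, 33.6 and 40.6 CPM at rest. Every stimulated library exceeded every resting one, with log2 fold changes of 1.21 ± 0.17 in Raptor KO (adjusted p = 7.61e-08) and 1.66 ± 0.17 in WT cells (adjusted p = 2.17e-11). In CD8+ cells the rise of Prdx1 was 1.22 ± 0.17 in Raptor KO (82.9, 104 and 114 CPM stimulated, against 43.3, 43.2 and 43.7 CPM at rest) and 1.19 ± 0.17 in WT cells (112, 85.1 and 119 CPM, against 33.3, 48.5 and 57.3 CPM), with adjusted p = 8.33e-08 and 6.84e-08 and no overlap in either genotype.

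Txnrd1 had 112, 73.8 and 104 CPM in stimulated Raptor KO CD4+ cells, against 64.1, 47.6 and 54.7 CPM at rest. In WT CD4+ cells it had 122, 124 and 137 CPM when stimulated, against 44.5, 47.8 and 45.2 CPM at rest. Stimulated and resting libraries were apart in both genotypes, more widely in WT cells, and the rises were 0.81 ± 0.15 in Raptor KO (adjusted p = 2.62e-05) and 1.48 ± 0.15 in WT cells (adjusted p = 3.79e-11). CD8+ cells gave 102, 99.3 and 93.3 CPM when stimulated, against 75.6, 54.7 and 73.1 CPM at rest, for Raptor KO, and 125, 95.8 and 119 CPM, against 34.8, 40.2 and 40.9 CPM, for WT. Txnrd1 rose there by 0.53 ± 0.15 in Raptor KO (adjusted p = 0.00303) and by 1.55 ± 0.16 in WT cells (adjusted p = 2.87e-11), again without overlap.

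Gsr (chr8:33652523-33698163), which returns oxidised glutathione to its reduced form, went the same way. It had 26.2, 23.4 and 40.1 CPM in stimulated Raptor KO CD4+ cells, against 16.0, 20.3 and 17.2 CPM at rest, and 44.8, 47.2 and 41.6 CPM in stimulated WT CD4+ cells, against 20.9, 15.5 and 12.8 CPM at rest. The groups did not overlap, but 1 Raptor KO library, replicate 3, was well above its partners. The rises were 0.76 ± 0.22 (adjusted p = 0.00326) and 1.45 ± 0.21 (adjusted p = 6.41e-08), and without replicate 3 of stimulated Raptor KO CD4+ cells the first was 0.48 (adjusted p = 0.0975). In CD8+ cells Gsr rose by 0.71 ± 0.22 in Raptor KO (adjusted p = 0.00612; 24.3 to 31.4 CPM stimulated, against 16.0 to 20.3 CPM) and by 1.46 ± 0.22 in WT cells (adjusted p = 3.37e-07; 33.7 to 38.2 CPM, against 9.93 to 14.6 CPM).

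Nfe2l2 (chr2:75675513-75704641), which encodes NRF2, was among the more abundant of these genes at rest and fell after stimulation. It had 16.0, 16.5 and 12.8 CPM in stimulated Raptor KO CD4+ cells, against 42.7, 60.4 and 62.5 CPM at rest, and 16.2, 16.5 and 17.6 CPM in stimulated WT CD4+ cells, against 43.1, 37.4 and 52.4 CPM at rest. No stimulated library reached any resting one, and the log2 fold changes were -1.88 ± 0.24 (adjusted p = 8.05e-09) and -1.40 ± 0.22 (adjusted p = 8.42e-07). In CD8+ cells Nfe2l2 had 28.5, 23.0 and 9.80 CPM in stimulated Raptor KO libraries, against 55.5, 65.5 and 58.8 CPM at rest, and 17.3, 18.2 and 19.5 CPM in stimulated WT libraries, against 41.9, 32.0 and 29.9 CPM at rest. Libraries of stimulated Raptor KO cells were the most scattered, with replicate 3 lowest, yet all 3 were below the resting ones, and the changes were -1.65 ± 0.23 (adjusted p = 5.89e-08) and -0.90 ± 0.23 (adjusted p = 0.000808).

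Gclc (chr9:77754535-77794485), the catalytic subunit of the enzyme that starts glutathione synthesis, fell alongside. Stimulated Raptor KO CD4+ cells had 18.2, 8.96 and 21.7 CPM, against 54.1, 42.8 and 59.4 CPM at rest, and stimulated WT CD4+ cells had 24.7, 18.7 and 15.1 CPM, against 48.7, 32.3 and 37.0 CPM at rest. The groups were apart in both genotypes, with changes of -1.61 ± 0.22 (adjusted p = 5.62e-08) and -1.06 ± 0.21 (adjusted p = 4.07e-05). In CD8+ cells Gclc fell by 1.26 ± 0.23 on the log2 scale in Raptor KO (16.1 to 18.8 CPM stimulated, against 33.8 to 50.8 CPM; adjusted p = 8.55e-06) and by 0.97 ± 0.22 in WT cells (17.1 to 19.7 CPM, against 33.3 to 39.0 CPM; adjusted p = 0.000198). These falls are relative to the other genes. In WT CD8+ cells the summed counts before scaling were 147 stimulated and 147 at rest for Nfe2l2, and 144 and 152 for Gclc. These libraries held 1522199 to 2263964 counts outside Rn45s when stimulated and 1665314 to 2175813 at rest. The fall of Nfe2l2 in WT CD8+ cells was thus not seen in unscaled counts. Another setting scaled to totals that include Rn45s and used no TMM factors, which moved the median of all genes by 0.77 in WT CD8+ cells. There Nfe2l2 changed by -0.11 (adjusted p = 0.837) and Gclc by -0.19 (adjusted p = 0.713). On that scale Gclc also missed the threshold in Raptor KO CD8+ cells (-0.93, adjusted p = 0.0600) and in WT CD4+ cells (-0.80, adjusted p = 0.0895). Among the rises, Gsr (0.67, adjusted p = 0.215) and Txnrd1 (0.70, adjusted p = 0.154) missed it there in Raptor KO CD4+ cells and Txnrd1 (0.83, adjusted p = 0.0725) in Raptor KO CD8+ cells.

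Keap1 (chr9:21229730-21239361), the adaptor that marks NRF2 for destruction, and Gclm, the regulatory subunit of the same ligase as Gclc, passed the threshold in WT CD8+ cells. Keap1 had 24.0, 32.1 and 19.8 CPM in stimulated WT CD8+ libraries, against 19.9, 14.0 and 14.0 CPM at rest, with 1 stimulated library just under the highest resting one (0.63 ± 0.24, adjusted p = 0.0222). Gclm had 13.4, 15.5 and 13.9 CPM, against 8.51, 7.39 and 5.49 CPM, without overlap (1.00 ± 0.34, adjusted p = 0.00997). In Raptor KO CD8+ cells the changes were -0.20 ± 0.26 for Keap1 (adjusted p = 0.527) and 0.21 ± 0.31 for Gclm (adjusted p = 0.587), and in CD4+ cells neither passed in either genotype, although Keap1 in Raptor KO CD4+ cells was close (-0.52 ± 0.24, adjusted p = 0.0701). Both calls depend on single libraries: Keap1 had adjusted p = 0.0711 without replicate 2 and 0.0913 without replicate 3 of resting WT CD8+ cells and 0.115 without replicate 2 of stimulated WT CD8+ cells, and Gclm had adjusted p = 0.0625 without replicate 3 of resting WT CD8+ cells.

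Gss, which completes glutathione, passed in none of the 4 comparisons on the scale used here and rested on 14 to 62 counts per group. Its largest change was 0.93 ± 0.53 in WT CD8+ cells (6.70, 7.49 and 5.09 CPM stimulated, against 2.84, 3.29 and 3.66 CPM at rest; adjusted p = 0.124), with a 95% interval of -0.14 to 2.00. Scaled to totals with Rn45s, it was 1.68 and passed (adjusted p = 0.00995). Srxn1 (chr2:152105516-152111376), which repairs overoxidised peroxiredoxins, was too scarce for the filter, with 0 to 13 counts per group. In CD4+ cells it had 11 counts in stimulated against 1 in resting Raptor KO libraries, and 13 in stimulated against 2 in resting WT libraries. In WT CD8+ cells it had 8 counts when stimulated and 0 at rest, at least 1.43-fold higher when 3 counts over the group are taken as the floor of detection; this covers counting error only. Fitted with no filter, Srxn1 had adjusted p = 0.142 in WT CD4+, 0.0699 in WT CD8+ and 0.0755 in Raptor KO CD4+ cells, so no rise was called.

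**Figure D2:**
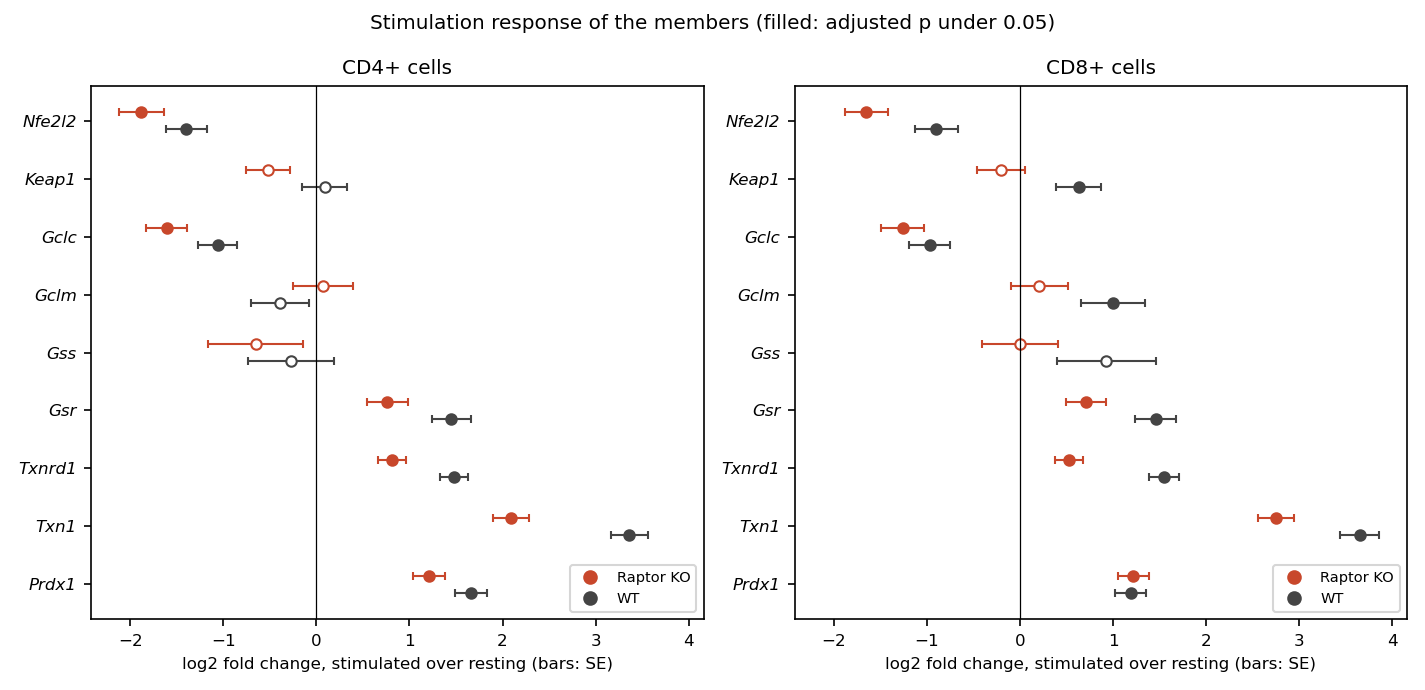
log2 fold change of stimulated over resting cells for the 9 genes tested, in CD4+ (left) and CD8+ cells (right); points are edgeR estimates, bars are SE, and filled points have an adjusted p under 0.05. Txn1 lies farthest to the right in all 4 comparisons, at 2.09 in Raptor KO and 3.36 in WT CD4+ cells, and Nfe2l2 and Gclc lie left of 0 throughout.

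The next question was whether loss of Raptor altered this response. The rise of Txn1 was smaller in Raptor KO than in WT CD4+ cells, with a difference of the log2 fold changes of -1.27 ± 0.28 (adjusted p = 0.00332). The rise of Txnrd1 was smaller in Raptor KO than in WT CD8+ cells, with a difference of -1.02 ± 0.22 (adjusted p = 0.00413). Each was the only 1 of the 9 genes past the threshold in its subset, where 5.82% of all genes in CD4+ and 2.89% in CD8+ cells differed. The matching values in the other subset missed it, at -0.67 ± 0.22 for Txnrd1 in CD4+ cells (adjusted p = 0.0548) and -0.90 ± 0.29 for Txn1 in CD8+ cells (adjusted p = 0.0788), so a difference between subsets is not shown. Single libraries moved these across the threshold. Txnrd1 in CD4+ cells had adjusted p = 0.0377 and 0.0467 without replicate 1 or 3 of stimulated Raptor KO cells, 0.0374 without replicate 2 of resting Raptor KO cells and 0.0415 without replicate 1 of stimulated WT cells. Txn1 in CD8+ cells had adjusted p = 0.0435 without replicate 2 of stimulated and 0.0287 without replicate 1 of resting WT cells. The calls for Txn1 in CD4+ and Txnrd1 in CD8+ cells were kept when any 1 library of the 4 groups was left out. They were lost when libraries were scaled to totals with Rn45s and without TMM factors (-1.74, adjusted p = 0.226, for Txn1 and -1.51, adjusted p = 0.318, for Txnrd1).

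For Gsr the difference of the stimulation effects was -0.70 ± 0.30 in CD4+ cells (adjusted p = 0.172, and -0.99 with adjusted p = 0.0442 without replicate 3 of stimulated Raptor KO cells) and -0.75 ± 0.32 in CD8+ cells (adjusted p = 0.219). Prdx1 differed by -0.45 ± 0.24 in CD4+ (adjusted p = 0.268) and 0.03 ± 0.24 in CD8+ cells (adjusted p = 0.982), with 95% intervals of -0.93 to 0.02 and -0.45 to 0.51. For Nfe2l2 the values were -0.49 ± 0.33 (adjusted p = 0.422) and -0.75 ± 0.33 (adjusted p = 0.229). None of these passed with all libraries.

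The smaller rises had 2 sides, the stimulated level and the resting level, and these were compared in turn. Among stimulated CD4+ cells, Gsr, Txnrd1 and Txn1 were lower in Raptor KO than in WT cells, which makes 0 higher and 3 lower of 9, where 8.82% of all genes were higher and 8.56% lower (17.4% in either direction). Gsr had 26.2, 23.4 and 40.1 CPM in Raptor KO against 44.8, 47.2 and 41.6 CPM in WT libraries, a log2 fold change of -0.54 ± 0.18 (adjusted p = 0.0355). Txnrd1 had 112, 73.8 and 104 CPM against 122, 124 and 137 CPM (-0.40 ± 0.14, adjusted p = 0.0463). All Raptor KO libraries were below all WT libraries for both genes. Txn1 had 90.6, 109 and 145 CPM in Raptor KO against 138, 162 and 190.4 CPM in WT libraries (-0.51 ± 0.17, adjusted p = 0.0285), and here the highest Raptor KO library lay above the lowest WT library.

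The labels give 3 library codes (StP212, StP213 and StP219), and within each code each gene was lower in Raptor KO. These are the same libraries, and for Gsr and Txnrd1 the lack of overlap fixed this sign in advance. The log2 differences were -0.76, -1.0 and -0.05 for Gsr, -0.13, -0.75 and -0.40 for Txnrd1, and -0.60, -0.57 and -0.39 for Txn1. These 3 calls are close to the threshold. A fit of the compared groups alone gave adjusted p = 0.0658 for Gsr, 0.0815 for Txnrd1 and 0.0600 for Txn1. Leaving out WT replicate 2 gave 0.107, 0.0706 and 0.0567, WT replicate 3 gave 0.0544, 0.163 and 0.175, and Raptor KO replicate 2 gave 0.187, 0.296 and 0.10 for Gsr, Txnrd1 and Txn1; without Raptor KO replicate 1, Gsr had 0.162 and Txn1 0.195. The change of Txnrd1 was -0.25 without Raptor KO replicate 2. In that library the summed level of 5 erythroid markers was 18.6 CPM, against 0.945 to 1.71 CPM in the other Raptor KO and 0.275 to 1.95 CPM in the WT libraries. Its 5 B cell markers summed to 40.7 CPM, against 16.5 and 24.5 CPM in the other Raptor KO and 11.7 to 19.5 CPM in the WT libraries. The part of these markers in the result was not tested.

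In the same stimulated CD4+ libraries, the summed level of 8 myeloid markers was 35.3 to 43.5 CPM in Raptor KO against 14.3 to 19.3 CPM in WT cells. Most of it was Ctss, at a mean of 34.5 CPM against 13.7 CPM. Cd68 (3.39 against 1.91 CPM), Csf1r (0.735 against 0.457 CPM) and Lyz2 (1 against 0 counts) were also higher in Raptor KO cells. Itgam and Fcer1g had 0 counts in both groups. Cd14 and Tyrobp had 0 counts in Raptor KO and 1 and 2 counts in WT cells. Protein-coding genes held 39.5%, 33.4% and 46.5% of the non-Rn45s counts in Raptor KO libraries against 38.9%, 55.5% and 63.6% in WT libraries. The part of these differences in the result was not tested.

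The other genes did not pass in stimulated CD4+ cells. Their log2 fold changes lay between -0.38 ± 0.49 for Gss and 0.29 ± 0.31 for Gclm, and the interval for Prdx1 was -0.44 to 0.19. Among stimulated CD8+ cells none of the 9 genes passed in edgeR or in DESeq2, where edgeR called 6.30% of all genes higher and 5.42% lower (11.7%). The share of all genes with an unadjusted p under 0.05 was not counted, here or below, so such counts have no background. Of the 9 genes, 1 had such a p. That gene was Keap1, with 13.4, 20.9 and 12.9 CPM in Raptor KO against 24.0, 32.1 and 19.8 CPM in WT libraries (-0.65 ± 0.23, adjusted p = 0.0600). One Raptor KO library lay just above the lowest WT library, and within the 3 library codes the differences were -0.82, -0.61 and -0.60. Without replicate 3 of WT or without replicate 2 of Raptor KO stimulated CD8+ cells, Keap1 had adjusted p = 0.0351 and 0.0223. For Txn1 the difference was -0.07 ± 0.16, with an interval of -0.40 to 0.26, and for Txnrd1 -0.21 ± 0.14, with an interval of -0.50 to 0.08. The Raptor effects in stimulated CD8+ and CD4+ cells differed for none of the 9 genes, by edgeR, by DESeq2 or at an unadjusted p under 0.05 (0.334% of all genes by edgeR), with 0.44 ± 0.23 for Txn1 (adjusted p = 0.585).

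At rest 1 gene passed, and in the other direction. Txnrd1 had 75.6, 54.7 and 73.1 CPM in resting Raptor KO CD8+ cells, against 34.8, 40.2 and 40.9 CPM in resting WT CD8+ cells. Every Raptor KO library was higher, and the log2 fold change was 0.81 ± 0.17 (adjusted p = 0.00389), or 1.75-fold. It was the only 1 of the 9 genes to pass, where 1.12% of all genes did. Its differences within the 3 library codes were 1.11, 0.44 and 0.83, with the sign fixed by the lack of overlap. Without replicate 1 of resting WT CD8+ cells the change was 0.74 and its adjusted p = 0.0529, and scaled to totals with Rn45s it was 0.74 with adjusted p = 1.00.

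Close to the threshold in the same cells were Nfe2l2, with 55.5, 65.5 and 58.8 CPM in Raptor KO against 41.9, 32.0 and 29.9 CPM in WT libraries (0.79 ± 0.22, adjusted p = 0.0548), and Txn1, with 23.8, 27.7 and 23.2 against 19.2, 9.03 and 13.4 CPM (0.83 ± 0.24, adjusted p = 0.0741). Neither gene's groups overlapped. Nfe2l2 passed with no filter (adjusted p = 0.0262), with protein-coding genes only (0.0372) and in a fit of the compared groups alone (0.0275). Its differences within the 3 library codes were 0.40, 1.02 and 0.97, with the sign again fixed by the lack of overlap. Without replicate 1 of resting WT CD8+ cells Txn1 had a change of 1.12 and adjusted p = 0.0304. Gclm had 0.83 ± 0.37 (adjusted p = 0.429) and Prdx1 -0.10 ± 0.18 (adjusted p = 0.922). The summed level of 4 NK cell markers in these libraries was 10.7 to 22.0 CPM in Raptor KO against 42.7 to 49.3 CPM in WT cells. Most of it was Klrk1, which CD8+ T cells also express, at 14.6 against 44.7 CPM, with Klre1 at 0 and Ncr1 at 2 against 1 counts. Its part in the result was not tested.

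In resting CD4+ cells none of the 9 genes passed in edgeR or DESeq2, where edgeR called 0.143% of all genes, and 1 had an unadjusted p under 0.05. That gene was Txn1, with 31.4, 29.4 and 19.5 CPM in Raptor KO against 16.7, 16.8 and 14.4 CPM in WT libraries, and no overlap (0.77 ± 0.22, adjusted p = 0.217). Txnrd1 had 64.1, 47.6 and 54.7 against 44.5, 47.8 and 45.2 CPM (0.27 ± 0.16, adjusted p = 0.741), with 1 Raptor KO library inside the WT range.

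**Figure D3:**
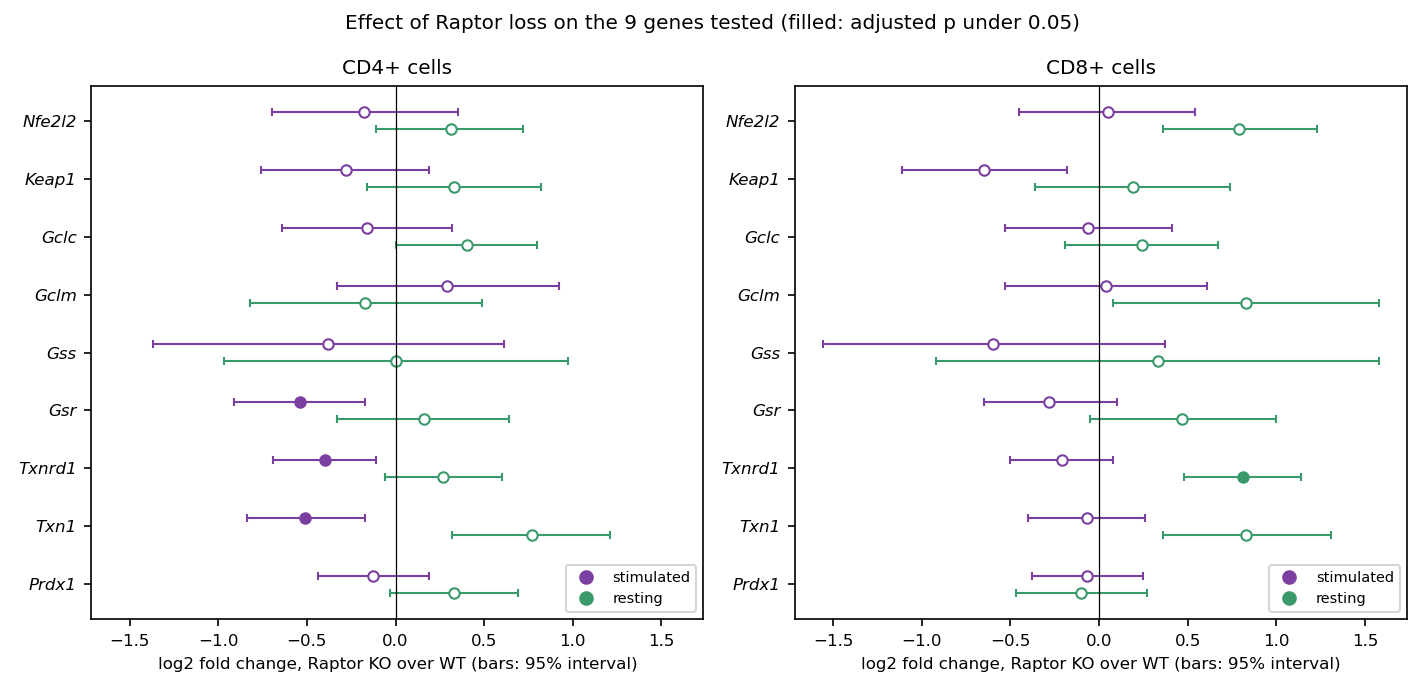
log2 fold change of Raptor KO over WT for the 9 genes tested, in CD4+ (left) and CD8+ cells (right), for stimulated and resting cultures; points are edgeR estimates, bars are 95% intervals, and filled points have an adjusted p under 0.05. For Txn1 and Txnrd1 the stimulated points lie left of 0 and the resting points right of 0 in both subsets, with Txnrd1 at -0.21 stimulated and 0.81 at rest in CD8+ cells.

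Loss of Rictor was tested in stimulated CD8+ cells. None of the 9 genes differed from WT in edgeR or DESeq2, where edgeR called 0.162% of all genes, and 1 had an unadjusted p under 0.05. That gene was Prdx1, with 128, 133 and 135 CPM in Rictor KO against 112, 85.1 and 119 CPM in WT libraries, all 3 higher (0.32 ± 0.15, adjusted p = 0.810). For Txn1 the difference was 0.12 ± 0.16, with an interval of -0.21 to 0.45, and for Txnrd1 -0.10 ± 0.14, with an interval of -0.38 to 0.19. All 3 Rictor KO libraries carry the code StP219, which stimulated WT CD8+ cells share in 1 library. Within that code, 3 Rictor KO libraries can be set against 1 WT library, with a log2 difference of 0.14 for Prdx1 and -0.03 for Txn1.

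Set directly against Raptor KO, stimulated Rictor KO CD8+ cells again had no gene of the 9 past the threshold in edgeR or DESeq2 (7.00% of all genes higher and 8.30% lower by edgeR, 15.3% in all). Of the 9 genes, 3 had an unadjusted p under 0.05, with no share of all genes at that cutoff to set beside them. Gsr had 41.9, 34.5 and 45.7 CPM in Rictor KO against 24.3, 30.8 and 31.4 CPM in Raptor KO libraries (0.46 ± 0.18, adjusted p = 0.0814). Prdx1 had 128, 133 and 135 against 82.9, 104 and 114 CPM (0.39 ± 0.15, adjusted p = 0.0849). Neither gene's libraries overlapped, and the share of all genes without overlap was not counted. Gsr passed in 2 and Prdx1 in 3 of 14 other settings, with adjusted p = 0.0390 and 0.0393 under median-ratio scaling. Neither passed in the 6 fits that left out a library. All Rictor KO libraries carry the code StP219, as does a single Raptor KO library of these cells. Within that code the log2 differences were 0.36 for Gsr and 0.21 for Prdx1. Keap1, the remaining gene, had 0.47 ± 0.23 (adjusted p = 0.172).

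The subsets were compared in WT cells. Between CD8+ and CD4+ cells of WT mice none of the 9 genes passed at rest (3.33% of all genes) or after stimulation (5.18%), in edgeR or DESeq2, and 1 gene at rest and 0 after stimulation had an unadjusted p under 0.05. The gene at rest was Gclm, with 8.51, 7.39 and 5.49 CPM in CD8+ against 17.4, 14.8 and 7.70 CPM in CD4+ libraries, which overlap (-0.87 ± 0.36, adjusted p = 0.239). After stimulation Txn1 differed by 0.10 ± 0.16, with an interval of -0.23 to 0.43.

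Companion genes of the same pathways were taken from 5 lists that leave out the 10 genes, listing 12 partners and regulators of NRF2, 18 other NRF2 targets, 27 genes of glutathione supply and use, 19 of the thioredoxin and peroxiredoxin system and 12 of superoxide, catalase and NADPH. Some genes stand in 2 lists (Slc7a11, G6pdx, Pgd, Cat and Me1). After stimulation, in Raptor KO CD4+ cells, the glutathione list had 5 genes higher and 2 lower of 18 tested (median 0.43), and in WT CD4+ cells 11 higher and 3 lower (median 1.24). The thioredoxin list had 9 higher and 2 lower of 19 in Raptor KO CD4+ cells (median 0.77) and 10 higher and 4 lower in WT CD4+ cells (median 0.77). NRF2 targets other than the 10 genes had 6 higher and 2 lower of 14 tested (median 0.64) and 8 higher and 2 lower (median 0.83) in the same order. Medians of all genes tested were 0.04 and -0.03, and 52.0% of them changed in Raptor KO and 64.9% in WT CD4+ cells, so several of these lists changed about as often as all genes. The NRF2 partner list had 0 higher and 4 lower of 12 in Raptor KO CD4+ cells (median -0.04), and 3 higher and 5 lower in WT CD4+ cells (median -0.22). The superoxide, catalase and NADPH list had 4 higher and 1 lower of 10 (median 0.23) and 5 higher and 2 lower (median 0.56). In CD8+ cells, where 55.6% of all genes changed in Raptor KO and 62.8% in WT cells, the glutathione list had 8 higher and 3 lower in Raptor KO (median 0.78) and 10 higher and 2 lower in WT cells (median 0.91). The thioredoxin list had 10 and 3 (median 0.99) and 11 and 3 (median 0.81) in the same order, and the other NRF2 targets 5 and 3 (median 0.48) and 8 and 2 (median 0.82). The superoxide, catalase and NADPH list had 6 and 2 (median 0.54) and 5 and 0 (median 0.70), and the NRF2 partners 2 and 3 (median -0.09) and 3 and 5 (median -0.28).

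Bach1, a repressor that competes with NRF2 for antioxidant response elements, fell with Nfe2l2. It averaged 7.37 ± 2.33 CPM in stimulated against 47.2 ± 4.97 CPM in resting Raptor KO CD4+ cells, and 4.36 ± 1.37 CPM in stimulated against 41.0 ± 3.52 CPM in resting WT CD4+ cells (SD, n = 3 each). The log2 fold changes were -2.70 ± 0.27 (adjusted p = 3.20e-11) and -3.27 ± 0.28 (adjusted p = 2.43e-13). Mafg, one of the small MAF partners of NRF2, was the gene of its list that differed at rest. It averaged 44.0 ± 9.97 CPM in resting Raptor KO CD8+ cells and 14.2 ± 4.13 CPM in resting WT CD8+ cells (1.59 ± 0.23, adjusted p = 2.69e-05), and 38.9 ± 10.2 against 19.5 ± 5.42 CPM in resting CD4+ cells (0.95 ± 0.21, adjusted p = 0.0460). After stimulation it averaged 47.7 ± 2.89 CPM in Raptor KO and 40.8 ± 4.27 CPM in WT CD8+ cells (0.23 ± 0.18, adjusted p = 0.450), and the difference of the stimulation effects was -1.36 ± 0.29 (adjusted p = 0.00394). Like Txnrd1 in CD8+ cells, Mafg was thus higher without Raptor at rest and not called after stimulation.

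Nfe2l1, the NRF2 relative known for control of proteasome genes, was lower in stimulated Raptor KO cells. It averaged 54.6 ± 6.32 CPM in Raptor KO and 102 ± 15.1 CPM in WT CD8+ cells (-0.88 ± 0.16, adjusted p = 0.000222), and 46.8 ± 8.62 against 75.1 ± 2.21 CPM in CD4+ cells (-0.67 ± 0.17, adjusted p = 0.00425). Cystine enters cells through the exchanger made by Slc7a11 and Slc3a2. Slc3a2 averaged 93.3 ± 4.50 CPM in stimulated Raptor KO and 183 ± 26.7 CPM in stimulated WT CD8+ cells (-0.97 ± 0.14, adjusted p = 2.54e-06). Slc7a11 was scarce, with 0.436 ± 0.399 CPM in stimulated Raptor KO and 5.99 ± 0.936 CPM in stimulated WT CD8+ cells, or 3 against 46 counts in all. It reached the filter only through stimulated WT and Rictor KO libraries, so no test is given.

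Of the superoxide, catalase and NADPH list, 3 of 10 genes in CD8+ and 4 of 10 in CD4+ cells were lower in stimulated Raptor KO than in WT cells, and the rest were not called. Cth, from the glutathione list, which makes cysteine from cystathionine, averaged 5.81 ± 4.56 CPM in stimulated Raptor KO and 58.6 ± 3.03 CPM in stimulated WT CD8+ cells. That is 39 against 467 counts in all, with 0 counts in resting CD8+ libraries of both genotypes. Cth reached the filter through groups where it was high, so no test is given. G6pdx and Pgd, which make NADPH in the pentose phosphate pathway, changed by -0.85 ± 0.20 (adjusted p = 0.00332) and -0.55 ± 0.16 (adjusted p = 0.0177) in CD8+ cells, and by -0.70 ± 0.21 (adjusted p = 0.0146) and -0.92 ± 0.16 (adjusted p = 7.01e-05) in CD4+ cells. Prdx3, the mitochondrial peroxiredoxin, averaged 45.4 ± 5.73 CPM in Raptor KO and 80.4 ± 6.58 CPM in WT CD8+ cells (-0.81 ± 0.17, adjusted p = 0.000642), where the cytosolic Prdx1 changed by -0.07 ± 0.16. Txn2, the mitochondrial thioredoxin, was not called, at -0.13 ± 0.20 in CD8+ (adjusted p = 0.722) and -0.15 ± 0.19 in CD4+ cells (adjusted p = 0.647).

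Counted by list, Raptor KO against WT in stimulated CD8+ cells gave 0 higher and 6 lower of 14 other NRF2 targets (median -0.45), 0 and 5 of 18 in the glutathione list (median -0.31), 0 and 4 of 19 in the thioredoxin list (median -0.15), 0 and 3 of 10 in the superoxide, catalase and NADPH list (median -0.40) and 1 and 1 of 12 NRF2 partners (median 0.20). Of all genes, 6.30% were higher and 5.42% lower, with a median of 0.03. In stimulated CD4+ cells the counts were 0 and 4, 0 and 4, 2 and 4, 0 and 4, and 1 and 2 in the same order, beside 8.82% and 8.56% of all genes. Protein-coding genes held 31.8%, 47.2% and 47.8% of the non-Rn45s counts in stimulated Raptor KO CD8+ libraries against 52.9%, 49.9% and 62.5% in WT libraries, without overlap, and the part of this in the counts was not tested. Rictor KO against Raptor KO in stimulated CD8+ cells gave 8 higher and 0 lower other NRF2 targets (median 0.60), beside 7.00% and 8.30% of all genes, a comparison that shares its Raptor KO libraries with the one before. Hmox1 and Slc7a11 reached the filter only through stimulated WT and Rictor KO libraries. Cth and Chac1, both called lower in the glutathione list in CD8+ cells, were also high in few groups. They had 39 and 11 counts in stimulated Raptor KO against 467 and 201 in stimulated WT CD8+ libraries. In resting CD8+ libraries of both genotypes they had 0 counts. The counts of lists that hold any of these genes are not independent of the filter.

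**Figure D4:**
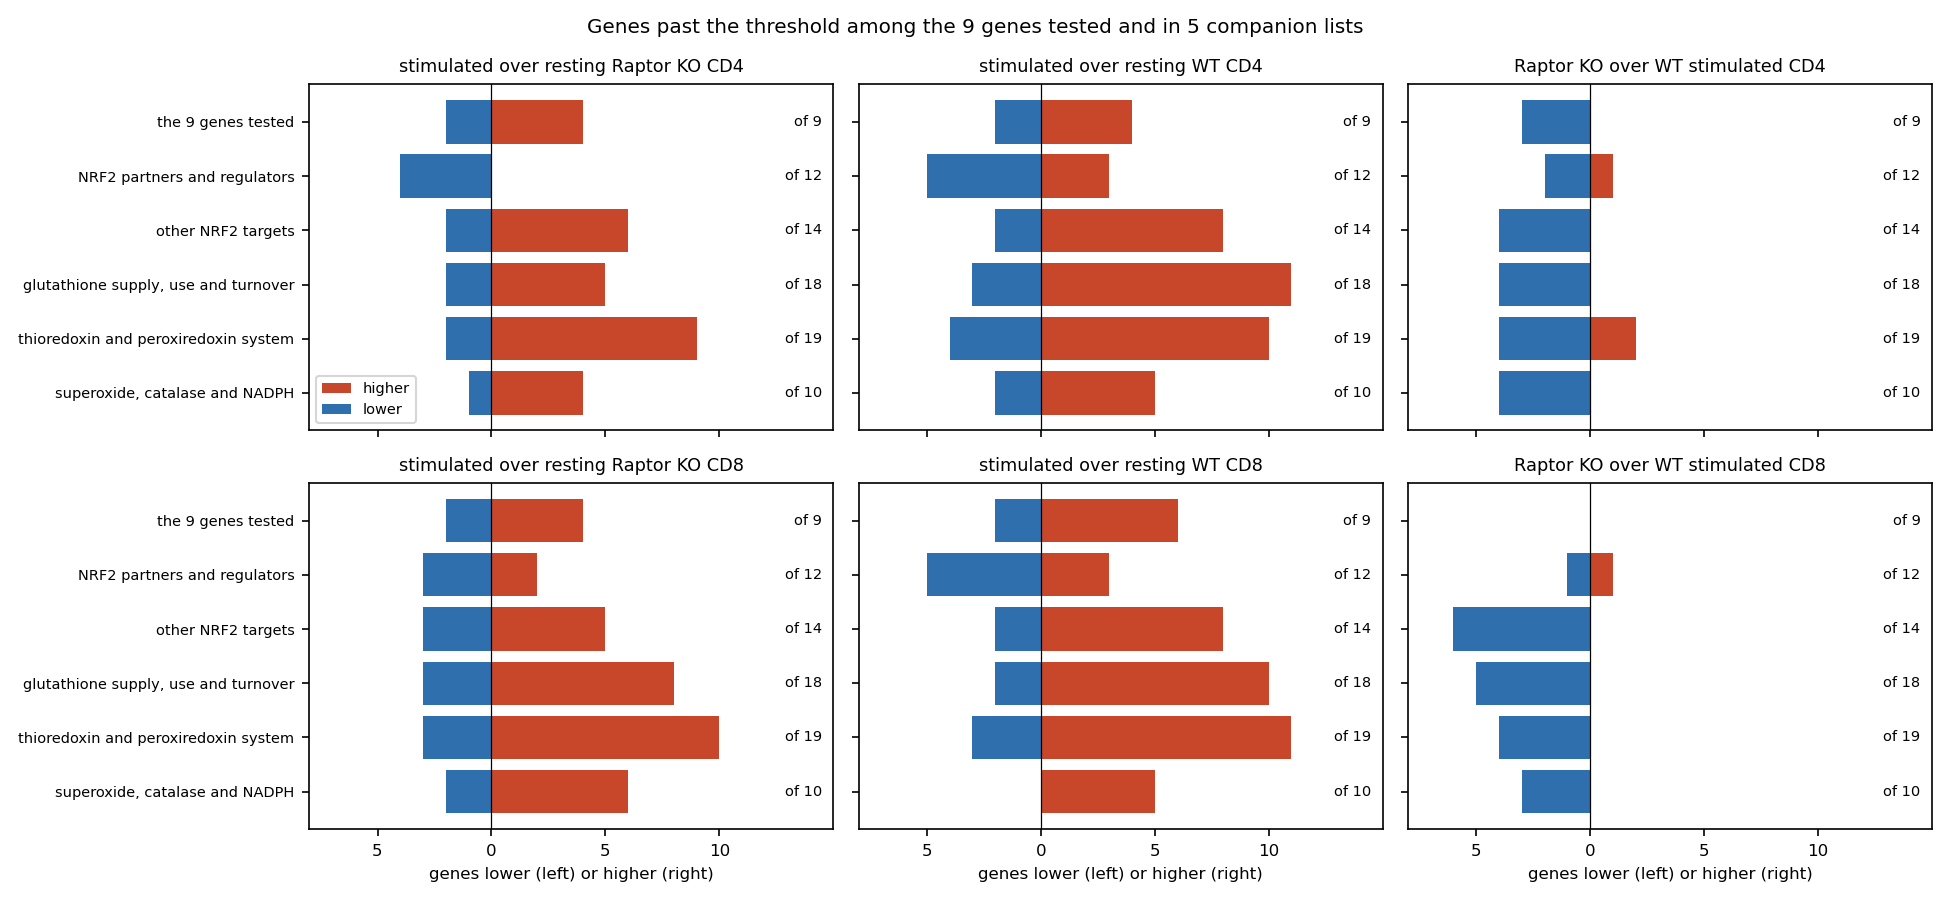
Number of genes past the threshold, lower to the left and higher to the right of 0, in the 9 genes tested and the 5 companion lists, with the number tested at the right; rows are CD4+ and CD8+ cells, and columns are stimulation in Raptor KO, stimulation in WT, and Raptor KO over WT among stimulated cells. In stimulated CD8+ cells the other NRF2 targets show 6 of 14 lower in Raptor KO where the 9 genes show 0. The list counts include Hmox1 and Slc7a11, which reached the filter only through stimulated WT and Rictor KO libraries. They also include Cth and Chac1, which had 0 counts in resting CD8+ libraries and few in stimulated Raptor KO CD8+ libraries.

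Among the companions best known as NRF2 targets, Nqo1 was below the filter, with group means of 0 to 1.81 CPM. Hmox1, the haem oxygenase, averaged 0.436 ± 0.399 CPM in stimulated Raptor KO and 5.03 ± 1.80 CPM in stimulated WT CD8+ cells, or 3 against 37 counts in all. Like Slc7a11, it reached the filter only through stimulated WT and Rictor KO libraries, so no test is given, although both are among the genes counted as lower above.

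Across the 9 group means, the 4 rising genes ran together and opposite to Nfe2l2 and Gclc, given here as a description over points that share libraries and are set mostly by stimulation. Pearson's r of mean log2 CPM was 0.97 between Txn1 and Prdx1, 0.97 between Txnrd1 and Gsr, 0.97 between Nfe2l2 and Gclc, and -0.94 between Nfe2l2 and Prdx1. Keap1 and Gss went together at 0.84, while Keap1 and Nfe2l2 had 0.03. Of 6723 other protein-coding genes, those most like Txn1 were Wdr5 and Vdac1 (both 0.998), and 956 exceeded 0.95. For Prdx1 they were Psma4 (0.996) and Usp1 (0.994), with 1027 above 0.95, for Gsr Bag6 (0.993) and Mrpl50 (0.992), and for Txnrd1 Arhgap19 (0.985) and 1110004F10Rik (0.983). Nfe2l2 was most like Znfx1 (0.992) and Orc4 (0.991), and Gclc most like Dhx40 (0.990) and Dcaf11 (0.987). No gene exceeded 0.95 for Keap1, Gclm or Gss, whose closest were Adi1 (0.929) and Cwc25 (0.908), Fbxl18 (0.865) and Maz (0.856), and Mrps5 (0.907) and Pip4k2b (0.896).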

How the data were processed

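The authors deposited raw read counts for each gene in a single table of 27 libraries. STAR 2.6.0a and GRCm38 are named in the submitters' processing notes. Which program, annotation and strand option produced the counts is not stated. Ensembl IDs were matched to GENCODE M21 for symbols and exon lengths (26765 of 26802 genes). Rn45s was left out before scaling.

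Testing used edgeR 4.0.16 in R 4.3.3: filterByExpr with the groups (at least 10 counts, 15 in total), which kept 10493 genes and 9 of the 10 named ones, TMM scaling, a group-means model of all 27 libraries, and quasi-likelihood F tests (robust), adjusted over all genes by Benjamini-Hochberg at 0.05. There were 12 comparisons between groups and 3 differences of effects. The common biological coefficient of variation was 0.187. SE is the log2 fold change divided by the square root of F. The test was tried on simulated counts. Replicates were compared by chi-square, and no pair agreed within counting error (2.44 to 41.3 per degree of freedom).

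The fits were repeated with DESeq2 1.42.0, median-ratio size factors, no filter, a stricter filter, totals with Rn45s, protein-coding genes only, the library code as a replicate block, the compared groups alone, and each library left out. The setting with Rn45s totals used no TMM factors. Companion genes named are the first 2 of each list and, in each comparison, the 3 past the threshold with the largest change and a mean of at least 10 CPM; not all are described, and Slc7a11, Hmox1, Prdx3 and Cth follow this rule, while Mafg in the difference of effects was picked after its values were seen. Genes most like a member were the best 2 by Pearson's r of mean log2(CPM + 0.5). The genes and lists were chosen with earlier results of these data known.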

Additional observations from a re-analysis of the deposited data

Results flagged for a closer look

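Both results below were picked because the same contrast, stimulated over resting, differed between Raptor KO and WT cells by a test of the difference itself (edgeR's quasi-likelihood test). For Txn1 in CD4+ cells the difference was -1.27 on the log2 scale, with a stimulation effect of 2.09 in Raptor KO and 3.36 in WT cells. For Txnrd1 in CD8+ cells it was -1.02, with effects of 0.53 in Raptor KO and 1.55 in WT cells. In each case the Raptor KO mean was above the WT mean at rest and below it after stimulation, but only 1 of these sides was called. Txnrd1 passed its test at rest in CD8+ cells and not after stimulation (-0.21, adjusted p = 0.373). Txn1 passed after stimulation in CD4+ cells and not at rest (0.77, adjusted p = 0.217). The Txn1 call after stimulation held in 8 of 14 other settings.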

How the results depend on the processing

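Over 135 results for the 9 genes tested, 2049 values were recomputed: 1988 kept their side of the threshold, 33 lost it, 28 gained it, and no called value changed sign. The number of genes called among the 9 moved as follows. For stimulation it was 5 instead of 6 in WT CD4+, 7 instead of 8 in WT CD8+ (7 higher and 0 lower) and 4 instead of 6 in Raptor KO CD4+ and in Raptor KO CD8+ cells with totals that include Rn45s. In Raptor KO CD4+ cells it was 7 with protein-coding genes only and with the compared groups alone, where Keap1 passed (adjusted p = 0.0433 and 0.0382). For Raptor KO against WT in stimulated CD4+ cells it was 0 instead of 3 with totals that include Rn45s and with the compared groups alone. In stimulated CD8+ cells it was 1 instead of 0 with median-ratio size factors, no filter and the replicate block. In resting CD8+ cells it was 2 instead of 1 with no filter, protein-coding genes only, the replicate block and the compared groups alone, and 0 with totals that include Rn45s. For Rictor KO against Raptor KO it was 2 instead of 0 with median-ratio size factors and no filter, and 1 with the compared groups alone. For the Raptor effect on the stimulation response it was 2 instead of 1 in CD4+ cells with median-ratio size factors, protein-coding genes only and the replicate block, and 0 in both subsets with totals that include Rn45s. Leaving out 1 library gave 0 to 3 calls in stimulated CD4+ cells, 0 to 1 in stimulated CD8+ cells, 1 to 3 and 1 to 2 for the CD4+ and CD8+ stimulation responses, and, for stimulation itself, 6 to 8 in WT CD8+ and 5 to 6 in Raptor KO CD4+ cells. The cause was not tested.

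Totals with Rn45s, used without TMM factors, moved the median log2 fold change of all genes to -0.46 and -0.49 for Raptor KO against WT in stimulated CD4+ and CD8+ cells, and to 0.25 and 0.77 for stimulation in WT CD4+ and CD8+ cells. Rn45s took 84.2%, 86.7% and 83.9% of counts in stimulated and 83.4%, 83.7% and 84.2% in resting WT CD8+ libraries. The parts of Rn45s and of the missing TMM factors in these moves were not tested. Same-numbered libraries correlated at -0.15 to 0.35, and in no comparison were all 3 above 0.1, a cutoff set by choice. Between CD8+ and CD4+ resting WT cells, each library correlated best with its own number (0.13, 0.09 and 0.27). The labels state no pairing, so the main model took none, and an effect of the code was not tested. With the code as a block, 2121 instead of 1823 genes were called for Raptor KO against WT in stimulated CD4+ cells. For Rictor KO against Raptor KO the number was 1563 instead of 1606. With the replicate block Keap1 in stimulated CD8+ cells had -0.64 (adjusted p = 0.0450), Nfe2l2 in resting CD8+ cells 0.79 (0.0359), and the CD4+ response of Txnrd1 -0.68 (0.0257). Low counts limit Gss and Srxn1.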
